A study of Mus musculus with 20 samples.

Results

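The 8 genes described here store, carry and sense cellular iron. They are the ferritin subunits Fth1 and Ftl1, the plasma iron carrier transferrin (Trf), the transferrin receptor (Tfrc), the iron importer Slc11a2, the iron exporter Slc40a1 and the iron regulatory proteins encoded by Aco1 and Ireb2. The members were chosen by name for their function, though with earlier results of these data known. Each was matched to 1 Ensembl ID among the 29200 genes of the count table. All 8 had enough reads to be tested.

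Their mRNA was read in the cerebellum of 20 mice, 1 library per mouse, by sequencing of polyA-enriched RNA. The mice were on the C57BL6/N strain and, as the study describes them, male littermates. There were 5 WT/WT mice with both wild-type Atxn3 alleles and 5 304Q/304Q mice homozygous for the knock-in at 2 months of age, and 5 of each genotype at 12 months. Atxn3 encodes ataxin-3, the protein whose polyglutamine stretch is expanded in spinocerebellar ataxia type 3. The knock-in allele carries an expanded, interrupted CAACAG repeat in the mouse gene under its own regulatory elements, so it is present in every cell that uses Atxn3, and all 304Q/304Q mice descend from 1 founder line. No agent was given to any group. The comparisons ask how genotype at each age, and age in each genotype, go with these mRNAs.

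Iron is held inside cells in a ferritin shell built of heavy (Fth1) and light (Ftl1) chains, of which the heavy chain oxidises the iron as it enters. Cells take up transferrin-bound iron through Tfrc, move it out of the endosome through Slc11a2 and release it through Slc40a1, also called ferroportin. When iron is scarce, the iron regulatory proteins bind hairpins called iron-responsive elements: in the 5′ UTR they block translation, and in the 3′ UTR of Tfrc they protect the mRNA from decay. In the brain, oligodendrocytes are rich in ferritin and a main source of transferrin mRNA, and they need iron for making myelin.

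The hairpins are shown because they are the feature through which the members are tied into 1 system. The search was for the loop CAGTGN closed by 5 pairing bases on each side (A-T, G-C or G-T) below which an unpaired C lies, on the mRNA strand of coding transcripts of the GENCODE M21 annotation (GRCm38). In the lines below, the unpaired C and the loop are in capitals, and the sequence is that of the mRNA with T for U.
Fth1, 5′ UTR: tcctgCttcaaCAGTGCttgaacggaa
Ftl1, 5′ UTR: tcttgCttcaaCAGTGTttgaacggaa
Slc40a1, 5′ UTR: aacttCagctaCAGTGTtagctaagtt
Tfrc, 3′ UTR, element 1: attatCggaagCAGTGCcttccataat
Tfrc, 3′ UTR, element 2: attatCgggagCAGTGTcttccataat
Tfrc, 3′ UTR, element 3: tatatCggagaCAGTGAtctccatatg
Tfrc, 3′ UTR, element 4: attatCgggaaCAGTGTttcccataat
The ferritin hairpins had the same stem and differed in the last base of the loop. The Fth1 element lay at chr19:9982738-9982754 on the plus strand and was in 4 of 5 coding transcripts. That of Ftl1 lay at chr7:45459785-45459801 on the minus strand, and that of Slc40a1 at chr1:45925471-45925487 on the minus strand, in 1 of 4 coding transcripts. The 4 Tfrc elements lay between chr16:32631225 and chr16:32631732 on the plus strand. Among 17537 coding genes, 0.171% had a match in a 5′ UTR and 0.781% in a 3′ UTR. No match by this rule was found in Trf, Slc11a2, Ireb2 or Aco1, which says only that no stretch of their annotated coding transcripts meets the whole rule. A hairpin with a bulge or a mismatch in the stem would be missed, in these genes and in the others. A match is a description of sequence, and read counts measure mRNA, not its translation.

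Between 11385380 and 27636687 reads per library were counted on genes, with group medians from 13226186 to 14234560. Levels are in CPM, read counts scaled to a common library size with TMM factors. Purkinje and granule cell markers were high in every library, with summed levels of at least 5297 and 6099 CPM. Ttr, the leading choroid plexus marker, was above 100 CPM in 6 libraries, from 374 to 2009 CPM, and at most 18.9 CPM in the other 14. These were replicate 3 of the 304Q/304Q mice at 2 months, replicates 1, 2 and 5 of the WT/WT mice and replicates 1 and 3 of the 304Q/304Q mice at 12 months. Results are therefore also given without these 6. Atxn3 itself lay between 11.1 and 16.9 CPM in 304Q/304Q and between 16.9 and 23.4 CPM in WT/WT mice at 2 months, a log2 fold change of -0.54 (adjusted p = 0.0916), and at 12 months the change was -0.13 (adjusted p = 0.51). Since the gene is changed and not deleted, its level does not check the labels.

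Per kilobase of exon, Fth1 was the most abundant member in all 4 groups, at 240.3 ± 33.9 CPM per kb (SD, n = 5) in WT/WT mice at 2 months. Ftl1 followed at 45.1 ± 9.15 CPM per kb and Tfrc at 13.1 ± 0.902 CPM per kb, and no mouse of that group had these 3 in another order. The next members, Aco1 at 7.96 ± 0.615, Ireb2 at 6.81 ± 0.975 and Slc11a2 at 6.34 ± 0.296 CPM per kb, overlapped from 1 to the next. Trf had 4.75 ± 0.986 CPM per kb. Slc40a1 was lowest in every group, at 0.948 ± 0.163 CPM per kb here. At 12 months Tfrc no longer stood apart: in WT/WT mice it was at 6.33 ± 0.805 CPM per kb, and from Aco1 through Tfrc, Trf and Slc11a2 to Ireb2 each member overlapped the next. Some of these levels are uncertain by annotation. Trf shares 2108 of its 3320 exon bases with Gm20425, a gene annotated on the same strand, and 77.3% of the windows of 1 read's length along its longest coding transcript occur there too. For Ftl1, 78.3% of such windows occur in other genes, most often in the ferritin light chain copy Ftl1-ps1. Ftl1-ps1 had 169 counts over all libraries against 19513 for Ftl1, and the Fth1 copies Fth-ps2 and Fth-ps3 had 17 and 5 against 246156. Slc11a2 shares 402 exon bases with Gm5475, annotated on the opposite strand, which had 17 counts. Gm20425 has no row in the count table. How reads with several matches were assigned, and whether strand was used, is not given in the sources used here. Reads dropped for matching more than 1 gene would count for none of them. The low counts of the copies therefore do not show that the levels of Ftl1 and Trf are complete.

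**Figure D1:**
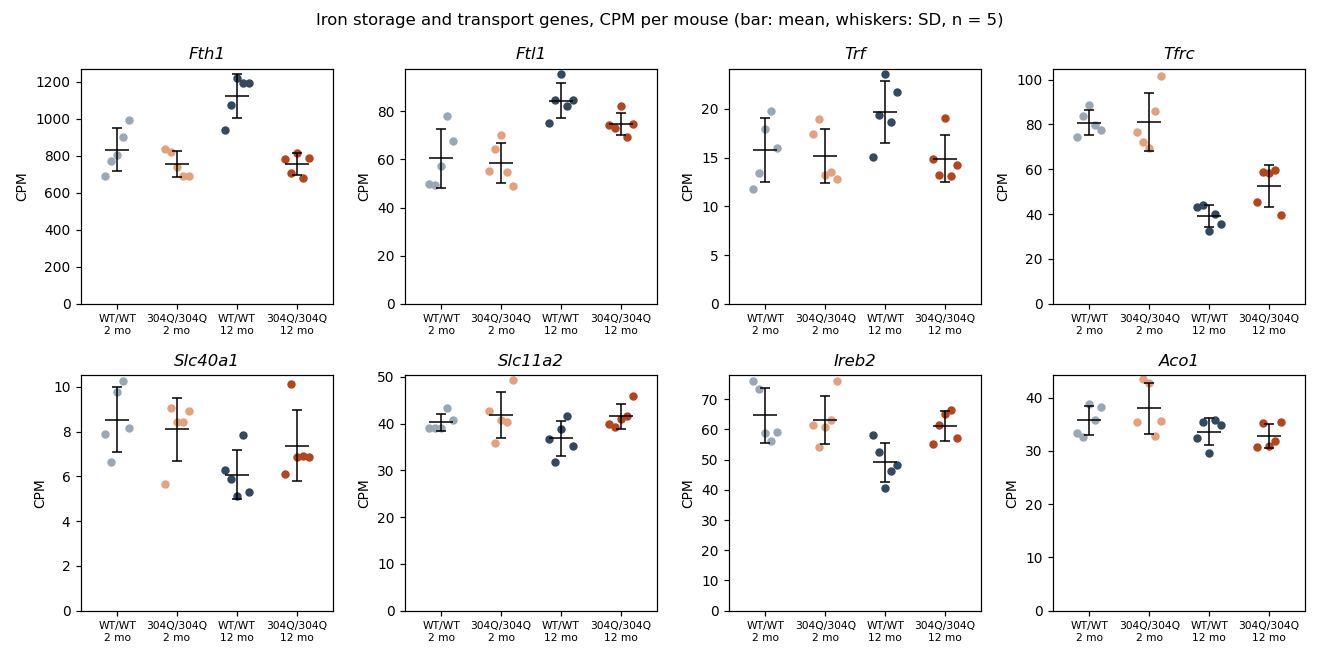
CPM of the 8 members in each mouse (points, replicates 1 to 5 from left to right), by genotype and age, with the group mean (bar) and SD (whiskers, n = 5). Every axis starts at 0. The Fth1 values of the 5 WT/WT mice at 12 months, 937 to 1221 CPM, all lay above those of the 304Q/304Q mice, 679 to 816 CPM.

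At 12 months, the mRNA of the ferritin heavy chain was lower and those of the transferrin receptor and of the iron regulatory protein Ireb2 were higher in 304Q/304Q mice when compared with WT/WT mice. These 3 of the 8 members passed an adjusted p of 0.05 in edgeR's quasi-likelihood test, where 12.5% of all 12153 genes tested did. Fth1 alone was also a DEG, meaning that its log2 fold change was moreover 0.5 or larger in either direction, and 3.09% of all genes were. Fth1 was also the only member whose groups did not overlap, which held for 8.94% of all genes. The other 5 members did not pass. The study itself put surrogate variables in its model to reduce unwanted variation. With such variables added here, Fth1 alone of the members was still called, where 9.99% (edgeR) and 11.1% (DESeq2) of all genes were. In bulk tissue, fewer cells of a type and less RNA per cell cannot be told apart, for any of the results below.

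Among the storage genes, Fth1 was at 937, 1076, 1221, 1193 and 1193 CPM in the 5 WT/WT mice of 12 months and at 785, 709, 816, 679 and 790 CPM in the 304Q/304Q mice. The lowest WT/WT mouse thus stood above the highest 304Q/304Q mouse. The log2 fold change was -0.57 with an SE of 0.0857, or 0.672-fold (adjusted p = 5.33e-05). It stayed past the threshold in all 9 other ways of processing and with any 1 of the 20 libraries left out, between -0.63 and -0.54 in the latter. With surrogate variables in the model it was smaller, -0.45 in edgeR and -0.44 in DESeq2, and below the size required of a DEG. Without the 6 libraries high in Ttr it was -0.74 (adjusted p = 0.00129).

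Ftl1 was at 75.2, 84.9, 95.4, 82.0 and 84.6 CPM in WT/WT and at 74.4, 73.1, 82.0, 69.5 and 74.7 CPM in 304Q/304Q mice of 12 months. The groups overlapped, as WT/WT replicate 1 was within the 304Q/304Q range and replicate 4 was level with its highest mouse. The log2 fold change of -0.18 had a 95% interval from -0.40 to 0.04 and did not pass (adjusted p = 0.298). The difference between the ferritin chains was not tested.

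Of the uptake genes, Tfrc was at 43.3, 44.2, 32.6, 39.9 and 35.5 CPM in WT/WT mice of 12 months and at 45.6, 59.0, 58.2, 59.8 and 39.5 CPM in 304Q/304Q mice. Replicates 1 to 4 of the 304Q/304Q mice stood above all WT/WT mice, and replicate 5 lay within the WT/WT range. The log2 fold change was 0.42 (SE 0.116, adjusted p = 0.0182). The call ended when any 1 of 5 libraries was left out, WT/WT replicate 3 or 5 or 304Q/304Q replicate 2, 3 or 4, with log2 fold changes between 0.36 and 0.39 and adjusted p between 0.0518 and 0.0647. It also ended with surrogate variables (0.14 in edgeR, adjusted p = 0.403, and 0.15 in DESeq2, adjusted p = 0.393), with trends of GC content and length removed (0.24, adjusted p = 0.0768), and without the 6 libraries high in Ttr (0.53, adjusted p = 0.0695).

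Trf, which loads iron for delivery to cells, was at 15.1, 19.4, 23.5, 18.7 and 21.7 CPM in WT/WT and at 14.8, 13.2, 19.1, 13.1 and 14.2 CPM in 304Q/304Q mice of 12 months. WT/WT replicates 1 and 4 and 304Q/304Q replicate 3 lay within the range of the other group. The log2 fold change of -0.40 (95% interval -0.71 to -0.09) did not pass (adjusted p = 0.0797). It passed without WT/WT replicate 1 (-0.49, adjusted p = 0.0274) or without 304Q/304Q replicate 3 (-0.51, adjusted p = 0.0379). Without the libraries high in Ttr, to which WT/WT replicate 1 and 304Q/304Q replicate 3 belong, the value was -0.65 (adjusted p = 0.0759).

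Slc11a2, the importer that works beside Tfrc, ranged from 31.7 to 41.6 CPM in WT/WT and from 39.4 to 45.9 CPM in 304Q/304Q mice of 12 months (log2 fold change 0.17, adjusted p = 0.164). The exporter Slc40a1 ranged from 5.12 to 7.83 CPM in WT/WT and from 6.08 to 10.1 CPM in 304Q/304Q mice (0.27, adjusted p = 0.318). For both, the ranges overlapped.

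Of the sensors, Ireb2 was at 58.0, 52.4, 40.6, 46.2 and 48.1 CPM in WT/WT and at 55.0, 61.4, 65.2, 66.3 and 57.0 CPM in 304Q/304Q mice of 12 months. WT/WT replicate 1 stood within the 304Q/304Q range and the other 4 below it. The log2 fold change was 0.31 (SE 0.102, adjusted p = 0.0445), close to the threshold. The call ended in 10 of the 20 fits with 1 library left out, with values from 0.25 without WT/WT replicate 3 to 0.33 without WT/WT replicate 2 and adjusted p from 0.0516 to 0.139. The other 8 libraries were WT/WT replicates 4 and 5 and 304Q/304Q replicates 2, 3 and 4 of 12 months, and 304Q/304Q replicates 1, 3 and 4 of 2 months, which bear on it only through the shared spread and adjustment. It also ended with surrogate variables (0.23 in edgeR, adjusted p = 0.0879), with trends of GC content and length removed (0.11, adjusted p = 0.264), and without the libraries high in Ttr (0.50, adjusted p = 0.0571). Aco1, the other regulatory protein and a cytosolic aconitase when it holds an iron-sulfur cluster, ranged from 29.6 to 35.8 CPM in WT/WT and from 30.7 to 35.4 CPM in 304Q/304Q mice (-0.03, adjusted p = 0.829).

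**Figure D2:**
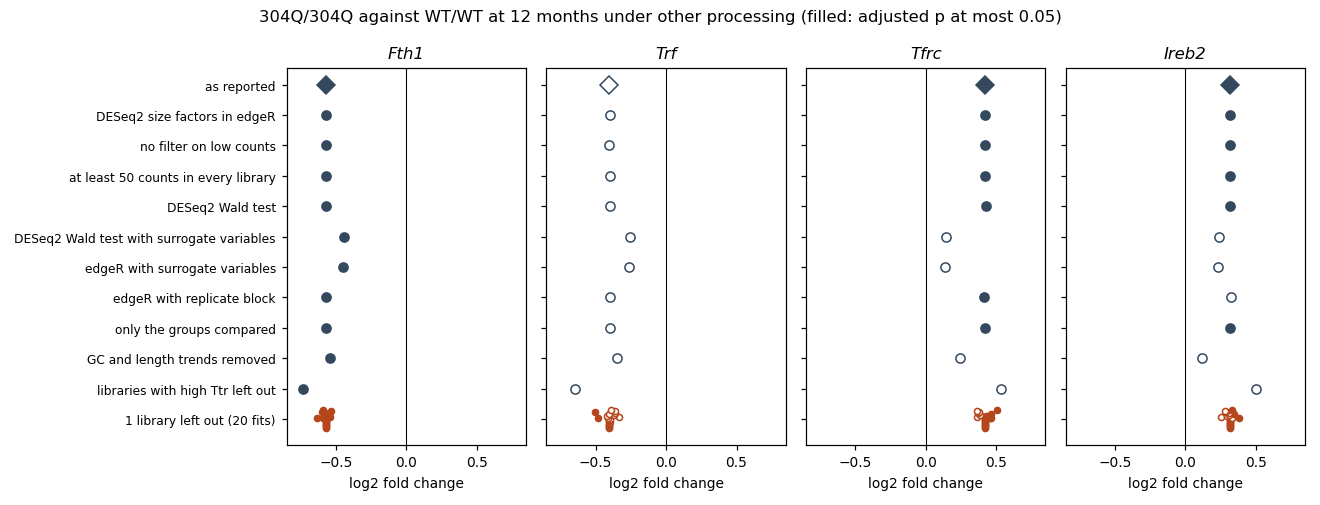
Log2 fold change of Fth1, Trf, Tfrc and Ireb2 in 304Q/304Q against WT/WT mice at 12 months as reported (diamond), under each other way of processing (circles) and with each of the 20 libraries left out (small circles), with filled symbols for an adjusted p of at most 0.05. Fth1 stayed filled throughout, at -0.74 to -0.44, whereas Tfrc and Ireb2 lost the call under several and Trf gained it only without 1 of 2 libraries.

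Other measures moved with genotype at 12 months beside these genes. In the marker counts here and for age, lower, higher, fell and rose mean an adjusted p of at most 0.05. Of 25 markers of myelinating oligodendrocytes, which are rich in ferritin, 12 were lower with the knock-in at 12 months and none was higher. Whether they passed or not, 24 lay below 0 and 1 above it (median log2 fold change -0.35, all genes -0.0039). Without the libraries high in Ttr 11 were lower. The summed level of the list without Enpp2, which choroid plexus also expresses, was 6191 to 6985 CPM in WT/WT and 4156 to 5592 CPM in 304Q/304Q mice. Of 8 Purkinje cell markers, 7 were lower (5 without those libraries), with summed levels of 6506 to 7124 CPM against 5297 to 5693 CPM. Of 10 endothelial markers, 3 were lower (none without those libraries in edgeR, where 3 had an unadjusted p under 0.05), with sums of 443 to 458 CPM against 383 to 406 CPM. Of 5 blood genes, 4 were lower (2 without those libraries), with sums of 116 to 247 CPM in WT/WT and 96.2 to 112 CPM in 304Q/304Q mice. Of 11 astrocyte and Bergmann glia markers, 2 were lower with and without those libraries, Gdf10 (-0.66) and Fgfr3 (-0.31) with all libraries. Of 8 oligodendrocyte precursor markers none passed in edgeR or DESeq2, 3 had an unadjusted p under 0.05 and 6 lay above 0, with sums of 667 to 761 CPM in WT/WT and 719 to 819 CPM in 304Q/304Q mice. Of 11 microglial markers tested, 1 was higher, C1qa, and not without those libraries, and of the 9 granule cell markers none passed in edgeR at 12 months (2 at an unadjusted p under 0.05, and none in DESeq2). The part of any of these in the values of Fth1, Trf, Tfrc or Ireb2 was not tested.

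**Figure D3:**
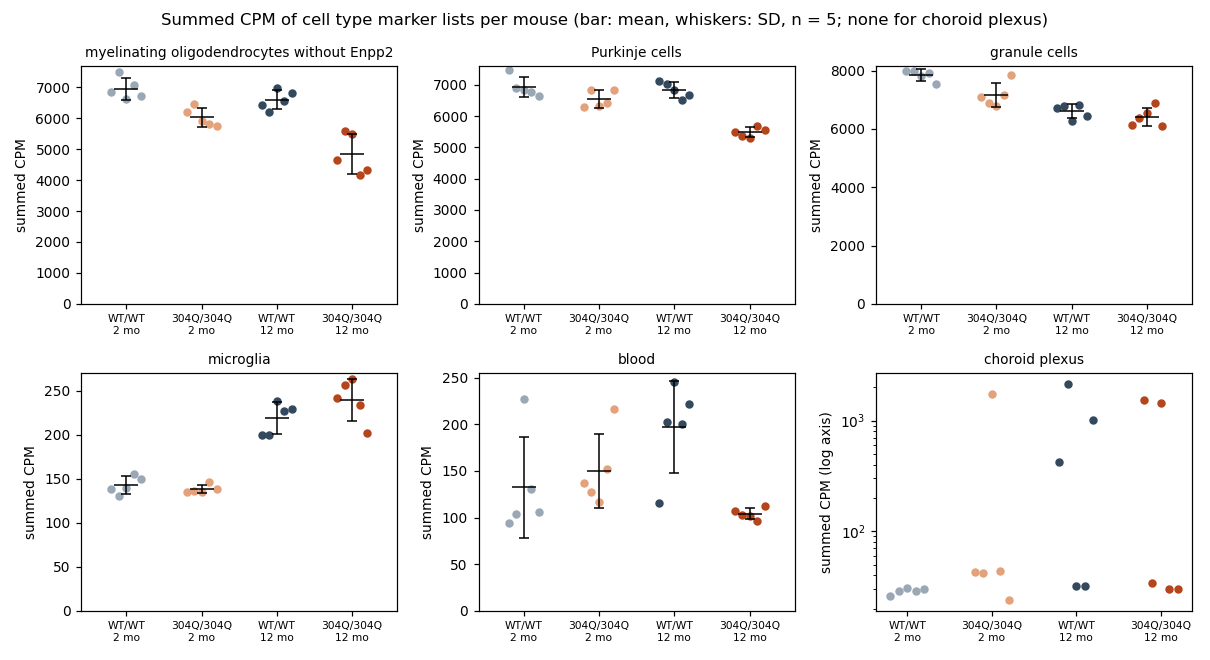
Summed CPM of 6 marker lists in each mouse (points), with the mean (bar) and SD (whiskers, n = 5) for all but the choroid plexus list, which is on a log axis. At 12 months the oligodendrocyte, Purkinje cell and blood sums of the 304Q/304Q mice lay below those of the WT/WT mice, and the choroid plexus sum was high in 6 libraries of 3 groups.

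At 2 months, the stage before symptoms, none of the 8 members passed in edgeR, none had an unadjusted p under 0.05 and none passed in DESeq2, where 0.0494% of all genes passed in edgeR. No member was without overlap between the genotypes, against 1.05% of all genes. Fth1 was at 693, 772, 805, 903 and 995 CPM in WT/WT and at 835, 818, 741, 690 and 689 CPM in 304Q/304Q mice. These ranges overlapped, with 2 WT/WT mice above all 304Q/304Q mice. The log2 fold change was -0.14 (95% interval -0.32 to 0.03, adjusted p = 0.904). With surrogate variables in the model it was -0.19 in both tools and passed, with an adjusted p of 0.0398 in edgeR and 0.0171 in DESeq2. Those fits called 0.362% of all genes in edgeR and 0.428% in DESeq2. For Tfrc the change was 0.01, with an interval from -0.22 to 0.24, and for Ireb2 it was -0.03, with an interval from -0.24 to 0.18. The intervals of the other 5 members all included 0, and the widest was that of Slc40a1, from -0.43 to 0.26. Of 25 markers of myelinating oligodendrocytes, 19 lay below 0 and 6 above at this age, and 11 had an unadjusted p under 0.05. In edgeR 1 passed, Mal (-0.39, adjusted p = 0.00668), and none without the libraries high in Ttr, while 3 passed in DESeq2. The summed level of this list without Enpp2 was 6613 to 7509 CPM in WT/WT and 5754 to 6472 CPM in 304Q/304Q mice. Its part in the members' values was not tested.

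With age, the transferrin receptor fell and the ferritin mRNAs rose in WT/WT mice. Between 2 and 12 months, 4 of the 8 members passed, where 11.5% of all genes did. This comparison and the genotype comparison at 12 months share the WT/WT mice of 12 months, so their results are not independent. Tfrc was at 74.5, 83.6, 88.9, 79.7 and 77.7 CPM at 2 months, and its 12-month values of 32.6 to 44.2 CPM were all below these. It was the only member without overlap, against 6.57% of all genes, and the only DEG, against 2.58% of all genes. Its log2 fold change was -1.05 (SE 0.115, 0.484-fold, adjusted p = 3.01e-06), and it passed under every alternative and without any 1 library.

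Fth1 rose with age in WT/WT mice by 0.43 on the log2 scale (SE 0.0856, adjusted p = 0.00262), from 833 ± 118 to 1124 ± 119 CPM (SD, n = 5). The ages overlapped, since the 12-month replicate 1 had less than the 2-month replicate 5. Ftl1 was at 49.8, 49.5, 57.3, 78.0 and 67.5 CPM at 2 months and rose by 0.48 (SE 0.108, adjusted p = 0.00597), with 1 mouse of 2 months within the range of 12 months. Both passed under every alternative. With surrogate variables in edgeR the smallest values were 0.26 for Fth1 and 0.28 for Ftl1.

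Cell type markers moved with age in WT/WT mice too. Of 11 microglial markers 8 rose (median log2 fold change 0.73), and as many without the libraries high in Ttr, and their sum was 131 to 155 CPM at 2 months and 199 to 238 CPM at 12 months. Of 25 markers of myelinating oligodendrocytes 6 fell and 2 rose (3 and 2 without those libraries), and of 8 precursor markers 3 fell with and without them, Gpr17 by 1.22 on the log2 scale. Of 9 granule cell markers 4 fell (2 without those libraries), of 8 Purkinje cell markers 3 rose (2 without), and of 5 blood genes 2 rose (1 without). Of 11 astrocyte and Bergmann glia markers 2 fell (1 without). Of 4 choroid plexus markers 2 rose, Ttr and Kl, and none without the libraries high in Ttr. In 304Q/304Q mice 8 of the 11 microglial markers rose and 10 of the 25 oligodendrocyte and 6 of the 8 Purkinje cell markers fell with age. The part of any of these in the values of Tfrc, Fth1, Ftl1 or Ireb2 was not tested.

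Ireb2 was at 75.8, 73.3, 58.6, 56.1 and 59.1 CPM in WT/WT mice of 2 months and fell by 0.40 on the log2 scale with age (SE 0.102, adjusted p = 0.0142). Its 12-month replicate 1, at 58.0 CPM, was within the range of 2 months. The call ended without replicate 1 or 2 of the 2-month or replicate 3 of the 12-month WT/WT mice (-0.35 to -0.33, adjusted p from 0.05 to 0.0547) and with trends of GC content and length removed (-0.19, adjusted p = 0.0774). Slc40a1 ranged from 6.63 to 10.2 CPM at 2 months and from 5.12 to 7.83 CPM at 12 months, a log2 fold change of -0.49 that did not pass (adjusted p = 0.0648). It passed in DESeq2 (-0.49, adjusted p = 0.0441), without WT/WT replicate 4 of 12 months (-0.60, adjusted p = 0.039) and without 304Q/304Q replicate 1 of 2 months (-0.49, adjusted p = 0.0491). Trf (0.32, adjusted p = 0.166), Slc11a2 (-0.13, adjusted p = 0.304) and Aco1 (-0.09, adjusted p = 0.526) did not pass.

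In 304Q/304Q mice, 2 of the 8 members passed with age, Tfrc and Ftl1, where 7.26% of all genes did. The comparison shares its 12-month mice with the genotype comparison at that age. Tfrc was at 76.8, 72.0, 69.5, 86.0 and 102 CPM at 2 months and at 39.5 to 59.8 CPM at 12 months, without overlap, which held for 7.80% of all genes. Its log2 fold change was -0.63 (SE 0.113, adjusted p = 0.000596), and it was a DEG, as were 2.28% of all genes. Ftl1 rose from 58.7 ± 8.34 to 74.8 ± 4.55 CPM (SD, n = 5), by 0.35 on the log2 scale (adjusted p = 0.0466). This call ended in 13 of the 20 fits with 1 library left out, among them each of the 5 304Q/304Q mice of 12 months and replicates 1, 2, 4 and 5 of 2 months, with values from 0.29 to 0.39 and adjusted p from 0.051 to 0.132. The other 4 were WT/WT mice, replicate 3 of 2 months and replicates 2, 4 and 5 of 12 months. It also ended without the libraries high in Ttr (0.37, adjusted p = 0.156).

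The means of Fth1 in 304Q/304Q mice were 755 ± 69.1 CPM at 2 months and 756 ± 58.6 CPM at 12 months (SD, n = 5), with a 95% interval of the log2 fold change from -0.17 to 0.18. Ireb2 changed by -0.05 (interval -0.26 to 0.16), Trf by -0.03 (interval -0.34 to 0.28) and Aco1 by -0.21 (adjusted p = 0.159).

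The difference between the genotypes in the change with age was tested directly. None of the 8 members passed in edgeR, where 1.95% of all genes did, although 3 had an unadjusted p under 0.05 and 1, Fth1, passed in DESeq2. The interaction of Fth1 was -0.43 (SE 0.121, unadjusted p = 0.00163, adjusted p = 0.0649). It passed in 5 of 8 other ways of processing, at -0.43 in DESeq2 (adjusted p = 0.0284), -0.43 with no filter on low counts, -0.38 with trends of GC content and length removed, and -0.25 with surrogate variables in either tool. In that order, these fits called 3.25%, 0.668% and 1.88% of all genes, and 2.66% (edgeR) and 3.46% (DESeq2) with surrogate variables. The Fth1 interaction also passed without any 1 of 4 libraries, WT/WT replicate 4 or 5 or 304Q/304Q replicate 5 of 2 months or WT/WT replicate 1 of 12 months, at -0.50 to -0.46. The interactions of Tfrc, 0.41 (adjusted p = 0.208), and of Ireb2, 0.34 (adjusted p = 0.243), did not pass in any of these 8.

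**Figure D4:**
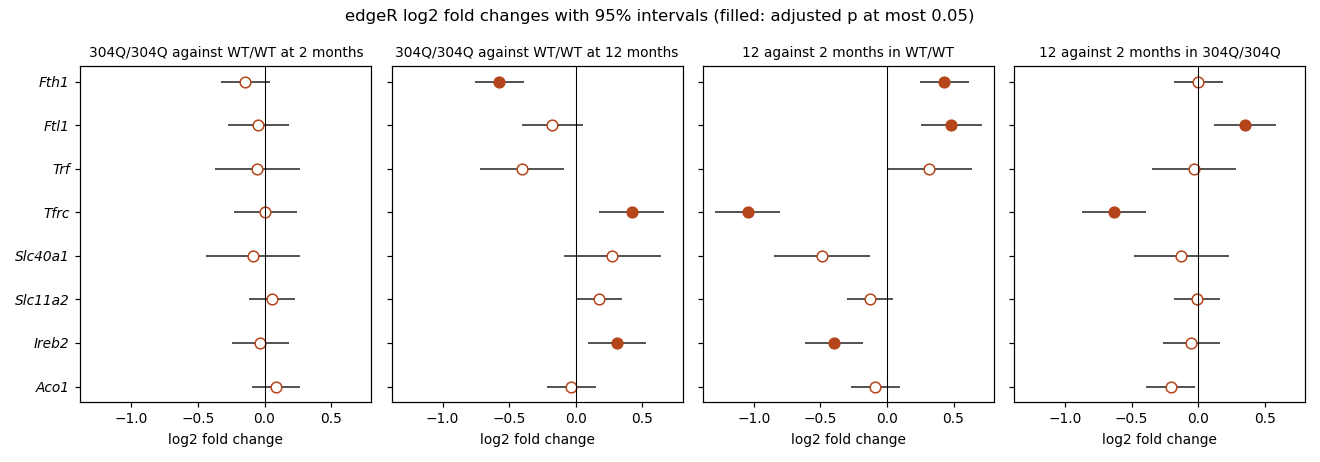
Log2 fold changes (points) with 95% intervals (lines) of the 8 members for genotype at each age and for age in each genotype, with filled points for an adjusted p of at most 0.05. Tfrc had log2 fold changes with age of -1.05 (WT/WT) and -0.63 (304Q/304Q), and Fth1 was at -0.57 for genotype at 12 months and 0.00 for age in 304Q/304Q mice.

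Within groups, mice high in one ferritin chain tended to be high in the other. Over the 20 libraries, with each group's mean taken out, the log2 CPM of Fth1 had a Pearson r of 0.692 with Ftl1, 0.796 with Trf, -0.762 with Ireb2 and -0.459 with Tfrc. Tfrc had r = 0.600 with Ireb2. These are descriptions over libraries that differ in depth. Differences in depth or base composition can move genes together, and their part was not tested. The longest annotated transcripts of Tfrc and Ireb2 had 39.8% and 39.0% GC, against 49.9% for Fth1, 58.1% for Ftl1 and 52.5% for Trf.

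Of all 12152 other genes tested, those most like Fth1 by this measure were the ribosomal protein genes Rpl13 (r = 0.925) and Rpl27a (0.921) and the ATP synthase gene Atp5g3 (0.917). Between genotypes at 12 months their log2 fold changes were 0.02, -0.03 and -0.18, none of which passed. With age in WT/WT mice they were 0.30 (adjusted p = 0.0271), 0.24 and 0.23, and the last 2 did not pass. How these differ from the changes of Fth1 was not tested. Among the genes most like Ftl1 were Rpl29 (0.890) and Rpsa (0.876). Trf was most like Smdt1 (0.892), Pea15a (0.858) and Tmem160 (0.855). Tfrc was most like Vps4b (0.913), Hnrnpul1 (0.892) and Slc33a1 (0.887), whereas Ireb2 was most like Spast (0.921), Appl1 (0.917) and Ccdc88a (0.912). The 6 genes nearest to Tfrc and Ireb2 had log2 fold changes of 0.14 to 0.28 between genotypes at 12 months, and none passed. Aco1 was nearest to Gdpgp1 (0.857), Cp (0.739) and Topbp1 (0.732). Slc40a1, nearest to Btbd11 (0.757), Pou2f2 (0.740) and Stom (0.717), and Slc11a2, nearest to Anks6 (0.715), Rnf135 (0.704) and Bcs1l (0.698), had no nearer gene.

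The members sit in a wider network, read here through 62 further genes of iron and heme handling, of which 60 were in the count table and 45 had enough reads to be tested. At 12 months 3 of the 45 rose with the knock-in, 3 fell and 39 did not pass, beside 12.5% of all genes called. Their median log2 fold change was -0.07, against -0.0039 for all genes. Without the libraries high in Ttr none of the 45 passed in edgeR (11 had an unadjusted p under 0.05). That fit called 5.28% of all genes, with 2 WT/WT and 3 304Q/304Q mice left at 12 months.

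Of the exporters and ferroxidases, Heph, which oxidises iron as ferroportin releases it, fell by 0.53 on the log2 scale at 12 months, from 5.41 ± 0.790 CPM in WT/WT to 3.76 ± 0.789 CPM in 304Q/304Q mice (SD, n = 5, adjusted p = 0.0403). Fbxl5, the iron-sensing ubiquitin ligase subunit that marks Ireb2 protein for breakdown, was higher by 0.26 (adjusted p = 0.0389). In heme handling, Fech, which inserts iron into heme, was higher by 0.24 (adjusted p = 0.0173), whereas Urod fell by 0.18 (adjusted p = 0.0445) and the transporter Abcg2 fell by 0.46 (adjusted p = 0.00632), from 12.4 ± 1.21 to 8.98 ± 0.468 CPM (SD, n = 5). Abcg2 is also abundant in brain endothelium, whose marker sums are given above, and their part was not tested. Cisd2, an iron-sulfur protein, was higher by 0.25 (adjusted p = 0.0259). Of the 9 other ways of processing, the call held in 8 for Fech and 7 for Abcg2, but in 5 for Fbxl5, 4 for Cisd2 and 3 for Urod, and for Heph in 4 of the 8 that tested it. None of the 6 genes tested for uptake, reduction and transport passed at 12 months in edgeR or DESeq2, and 1 had an unadjusted p under 0.05.

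With age in WT/WT mice, 7 of the 45 rose and 2 fell, beside 11.5% of all genes. The ferroxidase ceruloplasmin (Cp) rose by 0.44 on the log2 scale (adjusted p = 0.0131), from 20.2 ± 1.82 to 27.4 ± 2.93 CPM (SD, n = 5), the iron chaperone Pcbp1, which hands iron to ferritin, by 0.32 (adjusted p = 0.00964), and Hfe, which binds the transferrin receptor, by 0.60 (adjusted p = 0.0295). Slc25a28, a mitochondrial iron carrier, rose by 0.36, Iscu, the scaffold of iron-sulfur clusters, by 0.24, the lipocalin receptor Slc22a17 by 0.21 and the heme synthesis enzyme Urod by 0.19. Those that fell were the metalloreductase Steap2 (-0.32, adjusted p = 0.0403) and Cisd2 (-0.31, adjusted p = 0.0101). These 9 calls held in 4 to 7 of the 9 other ways of processing, most often for Slc25a28 and Cp. Without the libraries high in Ttr, in a fit that called 9.03% of all genes, 4 of the 45 were higher (Slc25a28, Pcbp1, Slc22a17 and Iscu) and 3 lower, among them Steap2 and the heme transporter Flvcr2, and Cp (0.35, adjusted p = 0.127), Hfe (0.29, adjusted p = 0.378), Urod (0.20, adjusted p = 0.0954) and Cisd2 (-0.29, adjusted p = 0.0505) no longer passed.

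In 304Q/304Q mice, 1 of the 45 rose with age, Slc22a17 (0.18, adjusted p = 0.0441), and 2 fell, among them Abcg2 (-0.46, adjusted p = 0.00842), beside 7.26% of all genes. Without the libraries high in Ttr neither Slc22a17 (0.17, adjusted p = 0.154) nor Abcg2 (-0.40, adjusted p = 0.129) passed, and 1 of the 45 did. In the interaction, 1 of the 45 passed, Urod (-0.33, adjusted p = 0.0338), and not without those libraries (-0.31, adjusted p = 0.146). At 2 months none of the 45 differed between genotypes in edgeR or DESeq2, and 4 had an unadjusted p under 0.05. Of the 15 genes with too few reads to be tested, the hormone hepcidin (Hamp) had at most 2 counts in any library.

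**Figure D5:**
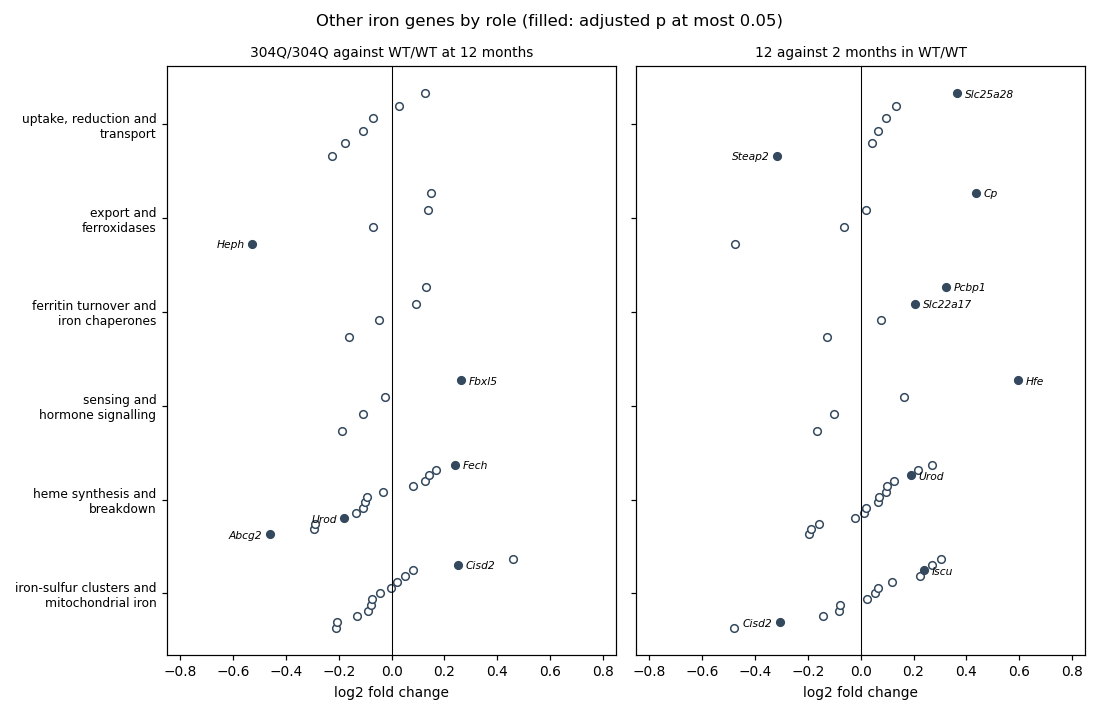
Log2 fold changes of the 45 further iron genes tested, by role, for genotype at 12 months (left) and for age in WT/WT mice (right), with filled points and names for an adjusted p of at most 0.05. At 12 months the 3 named to the left of 0 are Heph, Urod and Abcg2 and the 3 to the right are Fbxl5, Fech and Cisd2.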

How the data were processed

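The authors extracted total RNA from cerebella kept in RNAlater, made stranded polyA libraries and sequenced them as read pairs. They aligned the reads to GRCm38 with STAR (version 2.4.5b in the submitters' processing notes) and counted them per gene with Rsubread. The deposited values are whole-number counts of 29200 genes with no normalization. Whether strand was used in counting is not given in the sources used here.

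Column names tie each library to 1 mouse. On the deposited counts, TMM factors, CPM and edgeR's quasi-likelihood test (edgeR 4.0.16, R 4.3.3) were computed over the 12153 genes that averaged 50 counts or more per library. 1 model with a term per group held all 20 libraries, and p-values were adjusted by Benjamini-Hochberg over all genes tested. Members, lists and tests were chosen with earlier results of these data known. The genes named are the members, the further iron genes that passed, and for each member the 3 genes with the highest r on log2 CPM (prior count 2); results for some genes that this names are not given. Alternatives were DESeq2 1.42.0, surrogate variables (3, from sva 3.50.0), other filters, size factors, offsets for GC content and length, the replicate number as a block and each library left out. Leaving out the libraries with over 100 CPM of Ttr was added after the data were seen. On simulated counts at 12 months, edgeR recovered 197 of 200 genes changed by 1 on the log2 scale, with 5 others among 12099, and DESeq2 197 with 14 others. All 40 pairs of replicates differed by more than sampling noise (chi-square per degree of freedom of 4.07 or more). Counts in tested genes were 99.3% of the total, and the common biological coefficient of variation was 0.113. The labels name wild-type alleles of ataxin-2; the study's description of Atxn3 was used.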

Additional observations from a re-analysis of the deposited data

Results flagged for a closer look

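Within groups of 5, a single mouse stood apart from the rest (gap to the nearest mouse over the group's range above 0.71, Dixon's critical value) in 3 of the 32 sets of values, where chance gives about 1 in 20. Slc40a1 was lowest in replicate 1 of the 304Q/304Q mice at 2 months, at 5.64 CPM, and highest in replicate 2 of the 304Q/304Q mice at 12 months, at 10.1 CPM. The former was the deepest library of all, with 27636687 reads counted on genes. Trf was highest in replicate 3 of the 304Q/304Q mice at 12 months, at 19.1 CPM, a library with 1328 CPM of Ttr.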

How the results depend on the processing

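The 9 member results that passed the threshold kept their direction in all 9 other ways of processing and without any 1 library. Fth1 at 12 months, Fth1, Ftl1 and Tfrc with age in WT/WT mice and Tfrc with age in 304Q/304Q mice also kept the call in all of them, while Tfrc and Ireb2 at 12 months, Ireb2 with age in the WT/WT group and Ftl1 with age in 304Q/304Q mice lost it in some, as given above. Of the 8 members, 1 was called at 12 months with surrogate variables in DESeq2 or edgeR, with trends of GC content and length removed, and without the libraries high in Ttr, and between 1 and 4 without a single library. For age in 304Q/304Q mice, 1 was called without the libraries high in Ttr, and 1 or 2 without a single library. At 2 months 1 was called with surrogate variables in either tool, in fits that called 0.362% (edgeR) and 0.428% (DESeq2) of all genes. For the interaction, 1 was called with no filter on low counts, in DESeq2, with surrogate variables in either tool and with GC and length trends removed, and between 0 and 1 without a single library. The cause was not tested.

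Every sign change was in a value that passed in neither fit. Between genotypes at 2 months, with surrogate variables in DESeq2 and edgeR, Tfrc went to -0.011 and -0.012 and Ireb2 to 0.024 and 0.022 (0.0090 without GC and length trends). At 12 months Slc40a1 went to -0.0064 and -0.014 and Aco1 to 0.043 and 0.035 (0.0018 without GC and length trends, 0.060 without the libraries high in Ttr). With age in 304Q/304Q mice Fth1 was at -0.0046 with no filter, -0.0031 with the replicate block, -0.0092 without GC and length trends and -0.066 without the libraries high in Ttr, where Slc11a2 was at 0.0016. The interaction of Ftl1 went to 0.036 and 0.032 with surrogate variables and 0.045 without GC and length trends, and that of Aco1 to 0.021 without the libraries high in Ttr. Without a single library, the ranges at 2 months were -0.12 to 0.063 for Ftl1, -0.14 to 0.042 for Trf, -0.083 to 0.056 for Tfrc, -0.16 to 0.031 for Slc40a1, -0.0047 to 0.11 for Slc11a2 and -0.10 to 0.032 for Ireb2. With age in 304Q/304Q mice they were -0.029 to 0.041 for Fth1, -0.13 to 0.059 for Trf, -0.057 to 0.055 for Slc11a2 and -0.097 to 0.024 for Ireb2.

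With the replicate number as a block (replicate block), 2 members were called at 12 months, 4 with age for WT/WT and 2 for 304Q/304Q. Ireb2 at 12 months no longer passed (0.32, adjusted p = 0.0551), and no other member's call changed. The numbers share nothing in the labels, and most same-numbered mice did not deviate from their group means together. Over 30 pairs of same-numbered mice of different groups, the median r was -0.0404, and 6 pairs were above 0.1. The highest, 0.551, was that of replicate 1 of the WT/WT mice at 2 and 12 months.

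With 5 mice a group, the SEs of the members' log2 fold changes between genotypes ran from 0.080 to 0.17. Slc40a1 had the fewest counts and the widest intervals.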
